A study of Mus musculus with 2 samples.

Results

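The MS4A genes (membrane-spanning 4-domain family, subfamily A) encode small membrane proteins that cross the cell membrane several times, and 7 of them, Ms4a1, Ms4a4b, Ms4a4c, Ms4a6b, Ms4a6c, Ms4a6d and Ms4a7, were followed here through the cells of the wild-type mouse spleen. The members were chosen by name and no measured value entered the rule, but earlier results of these data were known at the time. They are 7 of the 27032 genes counted. The material was CD11c+ cells, enriched from spleen with magnetic beads, from wild-type mice only, in 2 samples (WT replicate 1 and WT replicate 2). Per the methods the mice were adults on the C57BL/6J background, both sexes were used over the study, and the sources used here give neither the age in weeks nor the number of mice per sample. The BD Rhapsody system, on which single cells were isolated, counts unique molecular identifiers (UMIs), so that each count stands for 1 captured mRNA molecule. Nothing in the labels says that the samples came from separate animals, so the p-values below measure only the spread between these 2 samples, which may be technical.

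MS4A proteins sit in the plasma membrane or in endosomal membranes, often beside a receptor whose signal they tune. The founding members are CD20, encoded by Ms4a1, the B-cell surface antigen targeted by depleting antibodies, and the beta chain of the high-affinity IgE receptor, encoded by Ms4a2, in mast cells and basophils. Ms4a4b encodes a protein of T and natural killer (NK) cells that can associate with the costimulatory receptor GITR, whereas Ms4a7 and the Ms4a6 genes are known mainly from monocytes and macrophages.

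Of 6393 cells in both samples, 5651 passed the quality filters, 2928 and 2723 in replicates 1 and 2, with medians of 12220 and 11433 UMIs per cell, and no cell barcode was shared between the samples. Cells were assigned to 9 classes by the UMIs of gating genes, taking the first gate that a cell matched, and none of the members is a gating gene. In replicates 1 and 2, respectively, 293 and 130 cells were macrophages (at least 20 UMIs of Vcam1 and 5 of C1qb), 138 and 173 mature dendritic cells (DCs; at least 2 UMIs of Ccr7 and 1 of Fscn1), 684 and 568 type 1 conventional DCs (cDC1s; at least 2 UMIs of Clec9a and 1 of Xcr1) and 13 and 19 plasmacytoid DCs (pDCs; at least 3 UMIs of Siglech and 1 of Ccr9). A further 65 and 172 were B cells (at least 3 UMIs of Cd79a), 41 and 159 T cells (at least 2 UMIs of Cd3e), 38 and 36 NK cells (at least 1 UMI of Ncr1), 556 and 456 DCIR2 cDC2s (at least 2 UMIs of Clec4a4) and 484 and 408 CLEC10A cDC2s (at least 2 UMIs of Clec10a and Cd209a together), while 616 and 602 cells matched no gate. Levels are given as CPM, the UMIs of a gene per 1000000 UMIs of all cells of a class in a sample.

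The class names were checked with markers that the gates did not use. All 10 macrophage markers, 8 of 8 mature DC markers and 6 of 6 markers each of B, T and NK cells were highest in their own class in both samples, against 4 of 7 for cDC1s (not Cd8a, Batf3 and Cadm1) and 5 of 7 for pDCs (not Cox6a2 and Spib). The cDC2 classes stood apart less clearly. By the same measure 0 of 5 DCIR2 markers and 1 of 7 CLEC10A markers (Mgl2) were highest in their own class: the DCIR2 list summed to 1471 and 1452 CPM in DCIR2 cDC2s against 2086 and 1836 CPM in mature DCs, and the CLEC10A list to 1902 and 2724 CPM in CLEC10A cDC2s against 4140 and 5993 CPM in macrophages. Set against each other, 4 of 5 DCIR2 markers were higher in DCIR2 than in CLEC10A cDC2s in both samples, with Hepacam2 as the exception, and 7 of 7 CLEC10A markers were higher in CLEC10A cDC2s. Of the DCIR2 cDC2s, 209 and 156 cells also matched the CLEC10A gate, and of the pDCs only 4 and 7 cells matched no other gate. Median depth ran from 6145 UMIs per cell in T cells of replicate 1 to 20890.5 in cDC1s of replicate 2, so shares of cells with a UMI are also given after each cell was thinned to 3000 UMIs.

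All 7 members lie in 1 cluster on chromosome 19, in a stretch of 678559 bases with 19 genes of the family (chr19:10962293-11640851, GRCm38, GENCODE M21). From low to high coordinate the members are Ms4a1 (ENSMUSG00000024673, chr19:11249675-11266241, minus strand), Ms4a7 (ENSMUSG00000024672, chr19:11321039-11336146, minus), Ms4a4c (ENSMUSG00000024675, chr19:11404770-11427246, plus), Ms4a4b (ENSMUSG00000056290, chr19:11443553-11467055, plus), Ms4a6c (ENSMUSG00000079419, chr19:11469366-11482192, plus), Ms4a6b (ENSMUSG00000024677, chr19:11516512-11531256, plus) and Ms4a6d (ENSMUSG00000024679, chr19:11586604-11604849, minus). Ms4a6b has 8 exons in its longest annotated coding transcript and the others have 7. The coding sequences of Ms4a4b and Ms4a4c were 91.8% identical, those of Ms4a6b and Ms4a6c 85.0%, those of Ms4a6b and Ms4a6d 80.7% and those of Ms4a6c and Ms4a6d 77.1%, and every other pair lay between 51.5% and 59.5%. Reads of such close copies could in part be counted to the wrong gene. All 75-base windows of the longest coding transcript of each member were compared with the transcripts of the other family genes. Of these windows, 103 of 4676 in Ms4a4b, 65 of 1649 in Ms4a4c, 29 of 2606 in Ms4a6b, 22 of 1767 in Ms4a6c and 7 of 1344 in Ms4a6d also occurred in another gene of the family, against 0 of 3001 in Ms4a1 and 0 of 1502 in Ms4a7. Ms4a1, Ms4a4c, Ms4a6b and Ms4a6c each overlap another annotated gene (4930526L06Rik, Gm5692, Gm19261 and BE692007, respectively), and the sources used here do not say whether the counting used strand.

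Promoters are shown because close copies with like promoters were measured side by side in the same cells. RefSeq start sites (GRCm38.p6) were available for 5 of the 7 members, each window running from 250 bases before to 50 bases after the start. Capitals mark matches, on either strand, to GAGGAA, the core bound by PU.1 and other ETS factors of myeloid and B cells, or to GAAANNGAA, the core of the interferon-stimulated response element. The windows, on the gene's strand, are chr19:11336097-11336396 for the first start site of Ms4a7, chr19:11407411-11407710 for Ms4a4c, chr19:11443308-11443607 for Ms4a4b, chr19:11469118-11469417 for Ms4a6c and chr19:11518309-11518608 for Ms4a6b.
Ms4a7: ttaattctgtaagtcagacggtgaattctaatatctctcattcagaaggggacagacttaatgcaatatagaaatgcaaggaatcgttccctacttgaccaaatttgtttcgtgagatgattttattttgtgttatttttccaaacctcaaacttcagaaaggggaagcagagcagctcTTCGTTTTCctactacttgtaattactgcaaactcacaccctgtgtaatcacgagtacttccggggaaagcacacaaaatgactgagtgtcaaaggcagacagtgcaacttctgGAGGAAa
Ms4a4c: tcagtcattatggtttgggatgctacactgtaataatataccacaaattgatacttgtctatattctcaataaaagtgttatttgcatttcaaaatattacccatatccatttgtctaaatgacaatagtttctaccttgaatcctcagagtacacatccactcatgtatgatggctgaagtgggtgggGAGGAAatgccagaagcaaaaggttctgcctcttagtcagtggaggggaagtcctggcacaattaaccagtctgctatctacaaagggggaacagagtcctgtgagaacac
Ms4a4b: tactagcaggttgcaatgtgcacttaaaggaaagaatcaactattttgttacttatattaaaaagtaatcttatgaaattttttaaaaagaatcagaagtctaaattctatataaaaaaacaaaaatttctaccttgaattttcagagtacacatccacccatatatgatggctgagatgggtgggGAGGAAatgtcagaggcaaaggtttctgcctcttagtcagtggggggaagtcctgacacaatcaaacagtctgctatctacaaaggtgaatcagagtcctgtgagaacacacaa
Ms4a6c: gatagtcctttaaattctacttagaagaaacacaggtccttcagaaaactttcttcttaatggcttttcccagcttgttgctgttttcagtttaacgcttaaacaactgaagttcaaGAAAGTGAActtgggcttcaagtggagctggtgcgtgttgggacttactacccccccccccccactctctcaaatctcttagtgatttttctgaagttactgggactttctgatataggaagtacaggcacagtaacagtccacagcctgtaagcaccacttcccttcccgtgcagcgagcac
Ms4a6b: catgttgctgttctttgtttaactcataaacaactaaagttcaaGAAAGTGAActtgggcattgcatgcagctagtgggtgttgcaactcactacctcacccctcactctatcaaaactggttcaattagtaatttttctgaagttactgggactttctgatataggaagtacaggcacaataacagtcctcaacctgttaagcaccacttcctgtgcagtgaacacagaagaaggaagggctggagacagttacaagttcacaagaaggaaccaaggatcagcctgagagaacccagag

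The Ms4a6b and Ms4a6c windows were 84.4% identical over 225 aligned bases, and those of Ms4a4b and Ms4a4c 72.7% over 293, whereas other pairs of members lay between 47.3% and 55.7%. Ms4a6b and Ms4a6c both hold GAAAGTGAA, at positions -206 to -198 and -133 to -125 from the start site, and the first Ms4a7 window holds a match of the same core on the other strand at -71 to -63. A second start site of Ms4a7 (chr19:11334646-11334945, not printed) has a match at -148 to -140. Ms4a4c and Ms4a4b hold GAGGAA at nearly the same place, -61 to -56 and -64 to -59, and no match to the interferon core. Over all 32851 RefSeq promoters of this length, 28.3% hold GAGGAA and 8.56% hold GAAANNGAA, so the ETS core in particular is a common find. The Ms4a4c and Ms4a6b windows lie inside the annotated gene spans, which start further upstream at 11404770 and 11516512, so these outermost starts are not covered. A match describes letters in these windows and was not tested for binding.

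**Figure D1:**
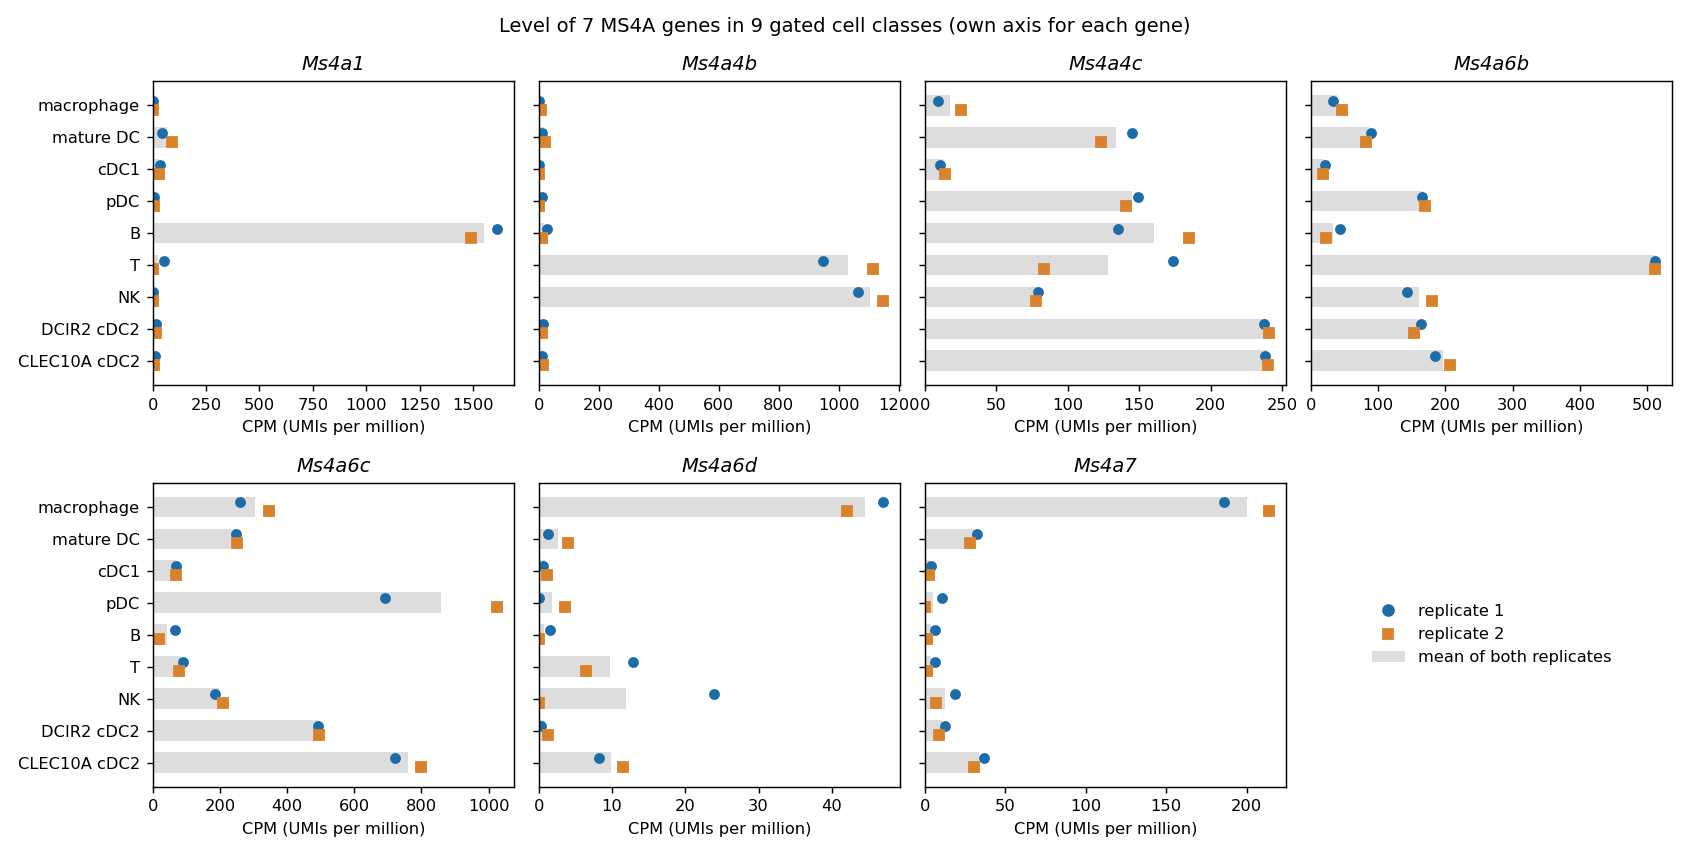
Level of each member in CPM (horizontal axis, own scale for each gene, from 0) in the 9 cell classes; points are the 2 samples and grey bars their mean. Ms4a1 peaks in B cells at 1614 and 1491 CPM, Ms4a4b in NK and T cells, Ms4a6b in T cells, Ms4a4c in both cDC2 classes, Ms4a6c in pDCs and CLEC10A cDC2s, and Ms4a6d and Ms4a7 in macrophages.

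Ms4a1 was a B-cell gene, at 1614 and 1491 CPM in B cells of replicates 1 and 2, where 95.4% and 95.9% of cells held at least 1 UMI. The next classes were far below: 44.1 and 88.5 CPM in mature DCs, 34.1 and 27.2 CPM in cDC1s, 16.6 and 16.5 CPM in DCIR2 cDC2s and 8.61 and 5.98 CPM in CLEC10A cDC2s. Mature DCs were above cDC1s in both samples, and cDC1s above DCIR2 cDC2s. T cells held 16 and 3 UMIs, of which 15 were in 1 cell of replicate 1, pDCs 1 and 2, NK cells 0 and 1, and macrophages 12 and 2.

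The Ms4a1 signal in cDC1s was spread over many cells. In replicates 1 and 2, 28.1% (exact binomial 95% interval 24.7% to 31.6%) and 22.9% (19.5% to 26.6%) of cDC1s held a UMI, against 2.39% and 1.54% of macrophages, which had similar depth (medians of 19520.5 and 20890.5 UMIs in cDC1s, 19313 and 18136.5 in macrophages). After thinning the shares were 8.77% and 6.34% of cDC1s against 0.683% and 0% of macrophages, where 0 of 130 cells, by a limit of 3 counts, allows a share of cells with a UMI of up to 2.31%. These intervals and limits cover counting error only. Relative to its level in B cells, Ms4a1 in cDC1s stood at 2.12% and 1.83%, while the 6 other B-cell markers had a median of 0.162% and 0.437%. The highest of these markers stood at 1.10% and 3.78%, above Ms4a1 in replicate 2. The B-cell gate was also matched by 0 and 6 of the cDC1s. A minority of cDC1s carried much of the signal: the 15 and 14 cells with at least 5 Ms4a1 UMIs held 28.5% and 40.9% of it. In mature DCs, 3 and 7 such cells held 28.6% and 71.8%, and 1 mature DC of replicate 2 that also matched the B-cell gate held 63 UMIs, without which the level was 57.8 CPM. Whether B-cell RNA or captured pairs of cells contributed to these values was not tested.

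Ms4a4b marked T and NK cells about equally. It stood at 1063 and 1148 CPM in NK cells and at 947 and 1113 CPM in T cells, with ranges that overlapped. A UMI was found in 92.1% and 88.9% of NK cells and in 87.8% and 93.7% of T cells. All other classes stayed below 30 CPM in both samples, with 28.3 and 9.58 CPM in B cells, 12 and 22.5 CPM in mature DCs, 14.1 and 11.8 CPM in DCIR2 cDC2s, 10.3 and 13 CPM in CLEC10A cDC2s and 2.19 and 1.70 CPM in cDC1s. Macrophages were at 0.904 and 7.34 CPM, and 12 of their 18 UMIs in replicate 2 came from 1 cell.

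Ms4a4c, the close copy of Ms4a4b, had another distribution. It was level in the cDC2 classes, with 237 and 241 CPM in DCIR2 cDC2s and 238 and 240 CPM in CLEC10A cDC2s, ranges that overlapped. A middle group followed whose members could not be ordered by 2 samples: B cells (135 and 185 CPM), T cells (174 and 83.1 CPM), pDCs (149 and 141 CPM) and mature DCs (145 and 123 CPM). NK cells were lower, at 79.5 and 78.1 CPM, and cDC1s and macrophages were lowest, at 11 and 14.3 CPM and at 9.04 and 25.7 CPM. A single macrophage of replicate 2, which also matched the T-cell and DCIR2 gates, held 54 of the 63 UMIs there, and without it the level was 3.71 CPM. After thinning, a UMI was left in 43.3% and 44.6% of DCIR2 cDC2s and in 3.51% and 2.82% of cDC1s.

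Ms4a6b was highest in T cells, at 512 and 511 CPM, above every other class in both samples. CLEC10A cDC2s (185 and 208 CPM), pDCs (165 and 170 CPM), NK cells (143 and 180 CPM) and DCIR2 cDC2s (164 and 154 CPM) formed the next group, in which NK cells overlapped with the pDCs and DCIR2 cDC2s. Mature DCs were at 90.2 and 82.5 CPM, macrophages at 32.5 and 46.9 CPM, B cells at 44.0 and 22.1 CPM and cDC1s at 21.5 and 18 CPM. The gene was thus found in both lymphoid and myeloid classes.

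Ms4a6c gave the most UMIs of the members, 13944 and 13097 over all kept cells. It was highest in pDCs, at 693 and 1026 CPM, and in CLEC10A cDC2s, at 720 and 799 CPM, with overlapping ranges, followed without overlap by DCIR2 cDC2s at 492 and 495 CPM. Macrophages were at 261 and 345 CPM, mature DCs at 247 and 251 CPM, and NK cells at 186 and 211 CPM. T cells (90.2 and 77.4 CPM), cDC1s (70.1 and 68.9 CPM) and B cells (65.9 and 19.9 CPM) were lowest. A UMI was left after thinning in 79.1% and 81.6% of CLEC10A cDC2s, 70.7% and 64.8% of DCIR2 cDC2s and 15.5% and 13.6% of cDC1s.

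**Figure D2:**
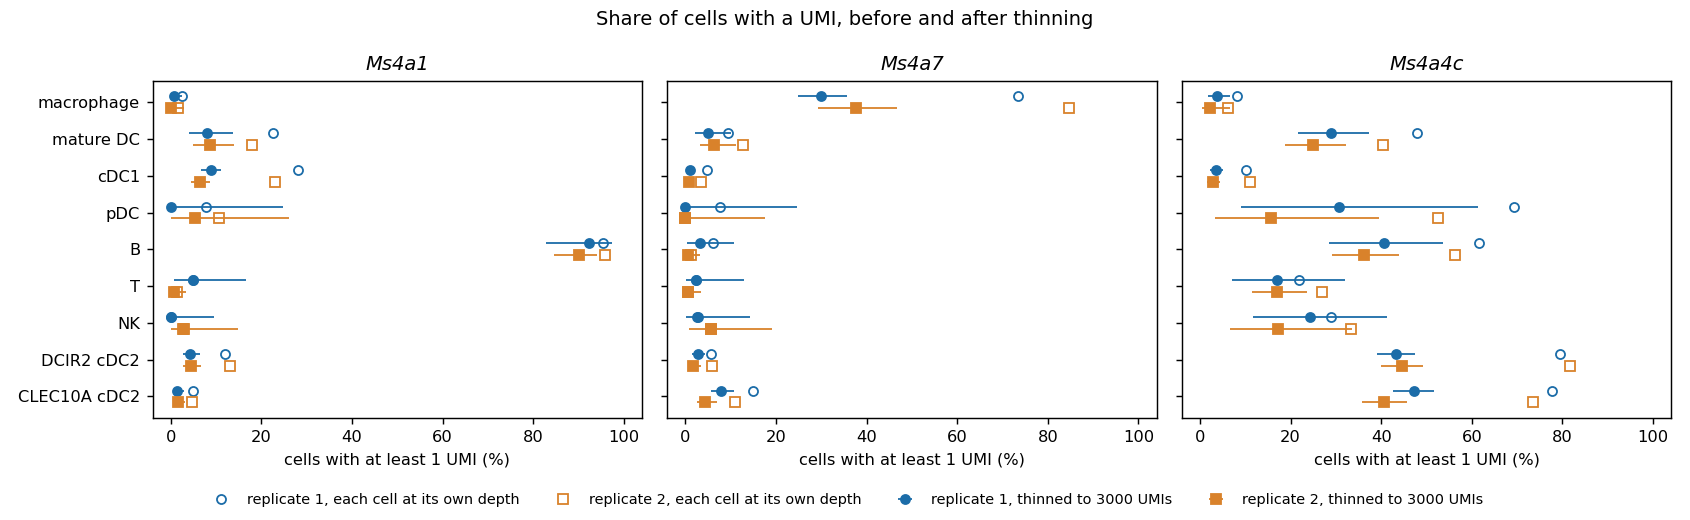
Share of cells with at least 1 UMI of Ms4a1, Ms4a7 and Ms4a4c, in percent, by class and sample; open points show each cell at its own depth, filled points each cell thinned to 3000 UMIs, and bars the exact binomial 95% interval of the thinned share, which covers counting error only. Thinning lowers the share of cDC1s with Ms4a1 from 28.1% and 22.9% to 8.77% and 6.34%, still above that of macrophages, and the share of macrophages with Ms4a7 from 73.4% and 84.6% to 30.0% and 37.7%.

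Among the gated classes, Ms4a6d was a low gene that peaked in macrophages. It stood at 47.0 and 42.0 CPM in macrophages, with a UMI in 46.1% and 40.8% of cells. CLEC10A cDC2s were at 8.24 and 11.5 CPM (45 and 54 UMIs). Counts elsewhere were small, with 7 and 14 UMIs in cDC1s, 2 and 8 in DCIR2 cDC2s, 2 and 8 in mature DCs, 4 and 8 in T cells and 0 or 1 in B cells and pDCs, and the 9 and 0 UMIs of NK cells gave 23.9 CPM in replicate 1 alone.

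Ms4a7 followed the same class. Macrophages were at 186 and 214 CPM, with a UMI in 73.4% (exact binomial 95% interval 67.9% to 78.4%) and 84.6% (77.2% to 90.3%) of cells. CLEC10A cDC2s (36.8 and 30.6 CPM) and mature DCs (32.8 and 28.0 CPM) came next with overlapping ranges, then DCIR2 cDC2s at 12.4 and 9.16 CPM and cDC1s at 4.07 and 2.55 CPM. NK cells held 7 and 2 UMIs, and pDCs, T cells and B cells between 0 and 4. In CLEC10A cDC2s the transcript was concentrated in few cells: 14.9% and 11% held a UMI, and the 13 and 9 cells with at least 5 UMIs held 53.2% and 58.0% of all Ms4a7 UMIs of the class. The level there was 19.8% and 14.3% of that in macrophages, against medians of 0.307% and 1.15% for the 10 other macrophage markers, of which the highest stood at 16.5% and 17.0%.

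Summed over all 7 members, the family took 1895 and 1729 CPM in B cells, 1794 and 1796 CPM in T cells, 1514 and 1627 CPM in NK cells, 1207 and 1307 CPM in CLEC10A cDC2s and 1034 and 1347 CPM in pDCs. DCIR2 cDC2s (936 and 928 CPM), mature DCs (573 and 599 CPM) and macrophages (539 and 682 CPM) followed. cDC1s were lowest in both samples, at 144 and 134 CPM. In cDC1s, 29.1% and 24.1% of cells kept a UMI of any member after thinning, against 91.7% and 92.6% of CLEC10A cDC2s and 97.6% and 97.5% of T cells.

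Differences between classes were tested on UMIs summed per class and sample with edgeR's quasi-likelihood test, with p-values adjusted by the Benjamini-Hochberg method over all genes tested and called at 0.05. A filter on low counts kept genes that were high enough in any class, even if near absent from a class compared. Ms4a6d, with 7 and 14 UMIs in cDC1s and 2 and 8 in DCIR2 cDC2s, was kept in this way. Over all genes, 50.5% were called between macrophages and cDC1s. Of the 7 members 5 were called, 4 higher in macrophages and 1 lower, and the median log2 fold change of the members was 0.92 against -0.04 for all genes. Ms4a7 (log2 fold change 5.85, SE 0.26, adjusted p = 3.56e-13) and Ms4a6d (5.63, SE 0.52, adjusted p = 1.6e-08) had the largest differences, both members higher in macrophages in both samples. Ms4a6c was 2.08 higher on the log2 scale (SE 0.23, adjusted p = 1.63e-07) and Ms4a6b 0.92 higher (SE 0.20, adjusted p = 0.000543). Ms4a1 was lower in macrophages than in cDC1s, at -4.15 on the log2 scale (SE 0.56, adjusted p = 2.77e-06). Ms4a4b (0.57, adjusted p = 0.486) and Ms4a4c (0.24, adjusted p = 0.582) missed the threshold.

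Against CLEC10A cDC2s, which share several myeloid genes with monocytes and macrophages, 7 of 7 members were called, beside 46.4% of all genes, and the family parted in direction. Ms4a7 (log2 fold change 2.66, SE 0.22, edgeR adjusted p = 3.76e-09) and Ms4a6d (2.28, SE 0.43, adjusted p = 0.000175) were higher in macrophages. Ms4a4c (-3.87, SE 0.30, adjusted p = 1.5e-09), Ms4a6b (-2.25, SE 0.19, adjusted p = 4.66e-09) and Ms4a6c (-1.23, SE 0.22, adjusted p = 8.99e-05) were lower, so that the Ms4a6 genes, 77.1% to 85.0% identical in coding sequence, went both ways. Ms4a4b (-1.84, SE 0.53, adjusted p = 0.00766) and Ms4a1 (-1.96, SE 0.72, adjusted p = 0.0313) were lower at low counts, and DESeq2 called neither (adjusted p = 0.11 and 0.0894). The call of Ms4a1 was also lost with each gate at 2 times its minimum (adjusted p = 0.0554). The median over the members was -1.84, against -0.01 over all genes.

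Between the cDC2 classes the macrophage members differed. In all, 5.55% of all genes were called between CLEC10A and DCIR2 cDC2s, and 2 of 7 members were: Ms4a6d (log2 fold change 3.68, SE 0.63, edgeR adjusted p = 0.00108) and Ms4a7 (1.69, SE 0.25, adjusted p = 0.000276), both higher in CLEC10A cDC2s. Ms4a6c was 0.68 higher on the log2 scale (SE 0.21) and did not pass (adjusted p = 0.0701), although both samples of CLEC10A cDC2s were above both of DCIR2 cDC2s. It was called without the filter on low counts (adjusted p = 0.000295), among cells that matched 1 gate only (0.74, adjusted p = 0.00213) and with each gate at 2 times its minimum (0.73, adjusted p = 0.0329). Ms4a1 (-1.11, SE 0.43, adjusted p = 0.164) was called lower without the filter (adjusted p = 0.000256) and with the stricter gates (-2.01, adjusted p = 0.0044). Ms4a4c differed by 0.06 (adjusted p = 0.961). The macrophage list, without Ms4a7, summed to 280 and 350 CPM in CLEC10A cDC2s and to 216 and 221 CPM in DCIR2 cDC2s; its part in the Ms4a6d and Ms4a7 differences was not tested.

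Most members differed between the resident cDC lineages, 5 of 7 being lower in cDC1s. Between cDC1s and DCIR2 cDC2s 34.2% of all genes were called, and 6 of 7 members were, with a median log2 fold change of -2.52 against 0.01 over all genes. Lower in cDC1s were Ms4a4c (-4.05, SE 0.27, edgeR adjusted p = 3.55e-10), Ms4a6b (-2.81, SE 0.18, adjusted p = 2.46e-10), Ms4a6c (-2.63, SE 0.23, adjusted p = 1.37e-08), Ms4a4b (-2.52, SE 0.41, adjusted p = 6.69e-05) and Ms4a7 (-1.50, SE 0.30, adjusted p = 0.000463). Ms4a6d did not pass (0.33, SE 0.80, adjusted p = 0.803), and Ms4a1 was called higher in cDC1s (1.08, SE 0.33, adjusted p = 0.0152). The Ms4a1 call was lost with DESeq2 (1.06, adjusted p = 0.422), with each gate at 2 times its minimum (0.79, adjusted p = 0.0644) and among cells that matched 1 gate only (0.80, adjusted p = 0.0692).

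Mature DCs, which have turned on Ccr7 to reach the T-cell zone, were compared with the mean log2 level of the 3 resident cDC classes. Of all genes 33.1% were called, and 4 of 7 members were, all higher in mature DCs than this mean: Ms4a1 (log2 fold change 2.18, SE 0.30, edgeR adjusted p = 8.79e-06), Ms4a7 (1.56, SE 0.25, adjusted p = 5.72e-05), Ms4a4b (1.47, SE 0.40, adjusted p = 0.00726) and Ms4a4c (0.64, SE 0.21, adjusted p = 0.0228). The Ms4a4b call was lost among cells that matched 1 gate only (0.90, adjusted p = 0.167) and with each gate at 2 times its minimum (0.52, adjusted p = 0.405), and that of Ms4a4c with DESeq2 (adjusted p = 0.0714). Ms4a6b (0.08, adjusted p = 0.744) and Ms4a6c (-0.19, adjusted p = 0.478), the more abundant Ms4a6 genes, missed the threshold. The mean includes cDC1s, in which most members were low. Ms4a4c in mature DCs (145 and 123 CPM) was below DCIR2 (237 and 241 CPM) and CLEC10A cDC2s (238 and 240 CPM). Of the 3 resident classes it was above cDC1s alone (11 and 14.3 CPM). Ms4a7 overlapped with CLEC10A cDC2s, and Ms4a4b with both cDC2 classes, whereas Ms4a1 was above all 3.

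In pDCs, with 32 cells in all, 9.66% of all genes and 2 of 7 members were called against the same mean of resident cDCs. Ms4a6c was higher than this mean (log2 fold change 1.37, SE 0.19, edgeR adjusted p = 7.32e-05), as was Ms4a6b (0.80, SE 0.23, adjusted p = 0.0289). By class, Ms4a6c in pDCs (693 and 1026 CPM) overlapped with CLEC10A cDC2s (720 and 799 CPM) and was above DCIR2 cDC2s and cDC1s. Ms4a6b in pDCs (165 and 170 CPM) was below CLEC10A cDC2s (185 and 208 CPM). It was little above DCIR2 cDC2s (164 and 154 CPM) and far above cDC1s (21.5 and 18 CPM). The Ms4a6b call was lost with each gate at 2 times its minimum (0.13, adjusted p = 0.865) and without the filter on low counts (0.59, adjusted p = 0.0913). Ms4a4c stood at 0.51 (adjusted p = 0.391), and the remaining members had at most 2 UMIs per sample in pDCs.

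Among lymphocytes, 17.8% of all genes and 4 of 7 members were called between B and T cells. Ms4a1 was higher in B cells (log2 fold change 6.90, SE 0.48, edgeR adjusted p = 2.93e-09). Ms4a4b (-5.99, SE 0.39, adjusted p = 1.34e-09), Ms4a6b (-4.06, SE 0.24, adjusted p = 6.79e-10) and Ms4a6c (-1.11, SE 0.37, adjusted p = 0.0442) were higher in T cells, the last no longer called with the sample number as a block (adjusted p = 0.0506). T and NK cells, with 7.99% of all genes called, differed in 2 of 7 members. Ms4a6b was higher in T cells (1.74, SE 0.22, adjusted p = 2.42e-05) and Ms4a6c lower (-1.22, SE 0.33, adjusted p = 0.0279), the latter not with each gate at 2 times its minimum (-0.51, adjusted p = 0.477). The CLEC10A list (Mgl2, Lyz2, Ccr2, Cx3cr1, Csf1r, Lyz1 and Clec12a) summed to 184 and 208 CPM in T cells against 1861 and 1178 CPM in NK cells. Of its genes only Mgl2 was highest in CLEC10A cDC2s, so the sum need not come from RNA of those cells. The macrophage list summed to 113 and 91.2 against 379 and 64.5 CPM. The part of these genes in the Ms4a6c difference was not tested. Ms4a4b differed between T and NK cells by -0.03 (SE 0.26, adjusted p = 0.996). The B-cell gate also held plasma cell transcripts, whose 3 markers summed to 7209 CPM in replicate 1 and 1310 CPM in replicate 2.

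**Figure D3:**
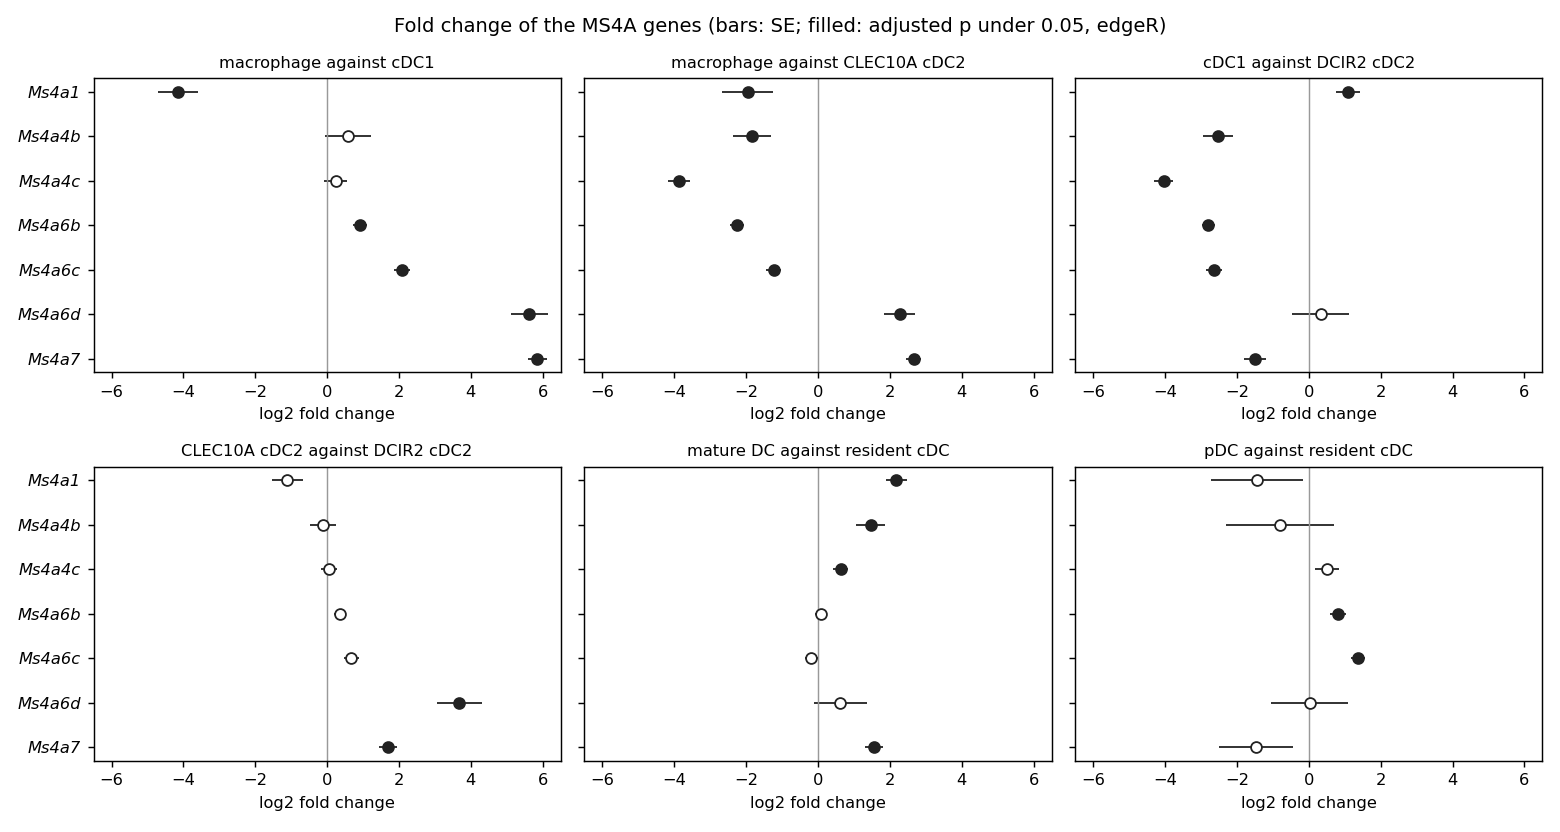
Log2 fold change of each member (horizontal axis) in 6 comparisons between classes; bars are 1 standard error and filled points have an adjusted p under 0.05 in edgeR's quasi-likelihood test. Ms4a6d and Ms4a7 lie right of 0 in both comparisons of macrophages, whereas Ms4a6b and Ms4a6c lie right of 0 against cDC1s and left of 0 against CLEC10A cDC2s.

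The study turned on marginal metallophilic macrophages (MMMs), which line the splenic marginal zone and carry CD169 (Siglec1), and on Langerin+ cDC1s, marked by Cd207, beside them. Gated macrophages with a Siglec1 UMI (112 and 56 cells) and gated cDC1s with a Cd207 UMI (116 and 112 cells) were taken as these groups. The names MMM and Langerin+ stand below for these UMIs only, and where the cells lay in the spleen was not measured. Both samples of MMMs were above both of Langerin+ cDC1s for Ms4a7 (217 and 211 against 7.72 and 1.94 CPM), Ms4a6c (251 and 357 against 18.3 and 28.3 CPM), Ms4a6d (50.3 and 42.8 against 0 and 1.55 CPM), Ms4a6b (33.0 and 51.0 against 4.47 and 10.9 CPM) and Ms4a4c (14.3 and 51.0 against 2.84 and 3.88 CPM). For Ms4a4c this rested on 1 MMM of replicate 2, the macrophage named above that also matched the T-cell and DCIR2 gates, which held 54 of 56 UMIs; without it replicate 2 stood at 1.86 CPM, below the Langerin+ cDC1s. Ms4a1 was the exception, at 3.04 and 0.911 CPM in MMMs against 32.9 and 16.7 CPM.

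Of 6 members tested, 6 were called in this comparison, beside 53.2% of all genes. The log2 fold changes of MMMs over Langerin+ cDC1s were 5.73 for Ms4a6d (SE 0.49, edgeR adjusted p = 5.75e-07), 5.37 for Ms4a7 (SE 0.30, adjusted p = 9.32e-09), 3.56 for Ms4a6c (SE 0.22, adjusted p = 2.11e-08), 2.26 for Ms4a6b (SE 0.36, adjusted p = 0.000184) and -3.50 for Ms4a1 (SE 0.51, adjusted p = 7.52e-05). Ms4a4c stood at 3.0 (SE 0.58, adjusted p = 0.000809), but at 1.33 (adjusted p = 0.116) among cells that matched 1 gate only and at 1.35 (adjusted p = 0.107) with each gate at 2 times its minimum, neither of them called. The fitted Ms4a6d fold change rests on 1 sample of Langerin+ cDC1s without a UMI and depends on the prior count. Ms4a6d passed the filter on low counts through the macrophage groups alone, so its call gives no support beyond the levels above.

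Within macrophages, no member separated MMMs from cells without a Siglec1 UMI (181 and 74 cells). EdgeR's quasi-likelihood test called 0 of 6 members and 0% of all genes, with 619 of 10851 genes at an unadjusted p under 0.05, and DESeq2 called 6 genes. Ms4a7 stood at 217 and 211 CPM in MMMs against 164 and 216 CPM (log2 fold change 0.18), and Ms4a6d at 50.3 and 42.8 CPM against 44.6 and 41.4 CPM (0.11). Ms4a6c was at 251 and 357 CPM against 268 and 336 CPM. The groups overlapped for all 3. The macrophage list holds C1qa, C1qc, Slc40a1, Hmox1, Spic, Fcna, Cd5l, Mrc1, Vsig4 and Adgre1. It summed to 26741 and 25260 CPM in MMMs against 26091 and 23459 CPM in macrophages without a Siglec1 UMI. The 5 erythroid markers summed to 5146 and 1911 against 2739 and 106 CPM. Neither the macrophage list nor the edgeR test set the cells named MMMs apart from the other gated macrophages. Whether the cells named MMMs here include macrophages from outside the marginal zone was not tested.

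Within cDC1s the Ms4a6 genes were uneven. Beside 0.387% of all genes, 1 of 6 members tested was called between cDC1s with and without a Cd207 UMI: Ms4a6c, at 18.3 and 28.3 CPM in Langerin+ cDC1s against 82.0 and 80.4 CPM (log2 fold change -1.70, SE 0.22, edgeR adjusted p = 0.00441). Ms4a4c (2.84 and 3.88 against 12.9 and 17.2 CPM, log2 fold change -2.05, adjusted p = 0.216) and Ms4a6b (4.47 and 10.9 against 25.3 and 20.1 CPM, log2 fold change -1.46, adjusted p = 0.119) were lower in both samples and missed the threshold. With the sample number as a block, both were called (log2 fold changes of -2.10 and -1.49, adjusted p = 0.0323 and 0.0365). Ms4a1 was at 32.9 and 16.7 CPM against 34.4 and 30.2 CPM, with overlap. The monocyte list summed to 47.9 and 36.1 CPM in Langerin+ against 105 and 103 CPM in Langerin- cDC1s and the cDC1 list to 5907 and 6086 against 5064 and 5212 CPM; their part in the differences was not tested.

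A split of the same cDC1s by Ccr2, the chemokine receptor that guides cells out of the bone marrow, gave the opposite side. Among cDC1s with a Ccr2 UMI (149 and 141 cells) against those without (535 and 427 cells), 11.4% of all genes and 3 of 7 members were called, all higher in Ccr2+ cDC1s, which had slightly lower median depth (18358 and 19514 against 20055 and 21356 UMIs). Ms4a6c stood at 173 and 130 CPM against 42.8 and 49.4 CPM (log2 fold change 1.60, SE 0.14, edgeR adjusted p = 0.000268). Ms4a4c was at 25.5 and 22.5 CPM against 7.15 and 11.7 CPM (1.24, SE 0.26, adjusted p = 0.0151). Ms4a6b was at 32.0 and 27.4 CPM against 18.7 and 15.1 CPM (0.70, SE 0.18, adjusted p = 0.0374), a call lost with DESeq2 (adjusted p = 0.14), among cells of 1 gate (adjusted p = 0.136) and with each gate at 2 times its minimum (adjusted p = 0.0935). In each of the 3 the groups did not overlap.

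Ms4a6d had 7 and 9 UMIs in Ccr2+ cDC1s and 0 and 5 in the larger Ccr2- group; its log2 fold change of 3.23 (SE 0.94) missed the threshold (edgeR adjusted p = 0.0589) and passed with the sample number as a block (3.27, SE 0.78, adjusted p = 0.000553). Ms4a1 went the other way, at 31.2 and 18.9 CPM against 34.9 and 29.9 CPM (-0.49, adjusted p = 0.196, and 0.0306 with the block), with overlap between the groups. Genes of other cells moved with Ccr2: the monocyte list summed to 234 and 200 CPM in Ccr2+ against 56.9 and 52.9 CPM in Ccr2- cDC1s, 6 CLEC10A markers to 737 and 721 against 586 and 352 CPM, and the cDC1 list to 4496 and 4792 against 5413 and 5599 CPM. Their part in the Ms4a differences was not tested.

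Crossing both splits, as a description with no test, Ms4a6c was highest in Ccr2+ Langerin- cDC1s (182 and 133 CPM; 139 and 135 cells) and lowest in Ccr2- Langerin+ cDC1s (14.2 and 25.9 CPM; 106 and 106 cells). Ccr2- Langerin- cDC1s were at 50.7 and 58.3 CPM (429 and 321 cells). The few Ccr2+ Langerin+ cells, 10 and 6, held 13 and 10 UMIs, or 63.0 and 69.2 CPM. In both samples the level was thus higher with Ccr2 within each Langerin group and lower with Langerin within each Ccr2 group.

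**Figure D4:**
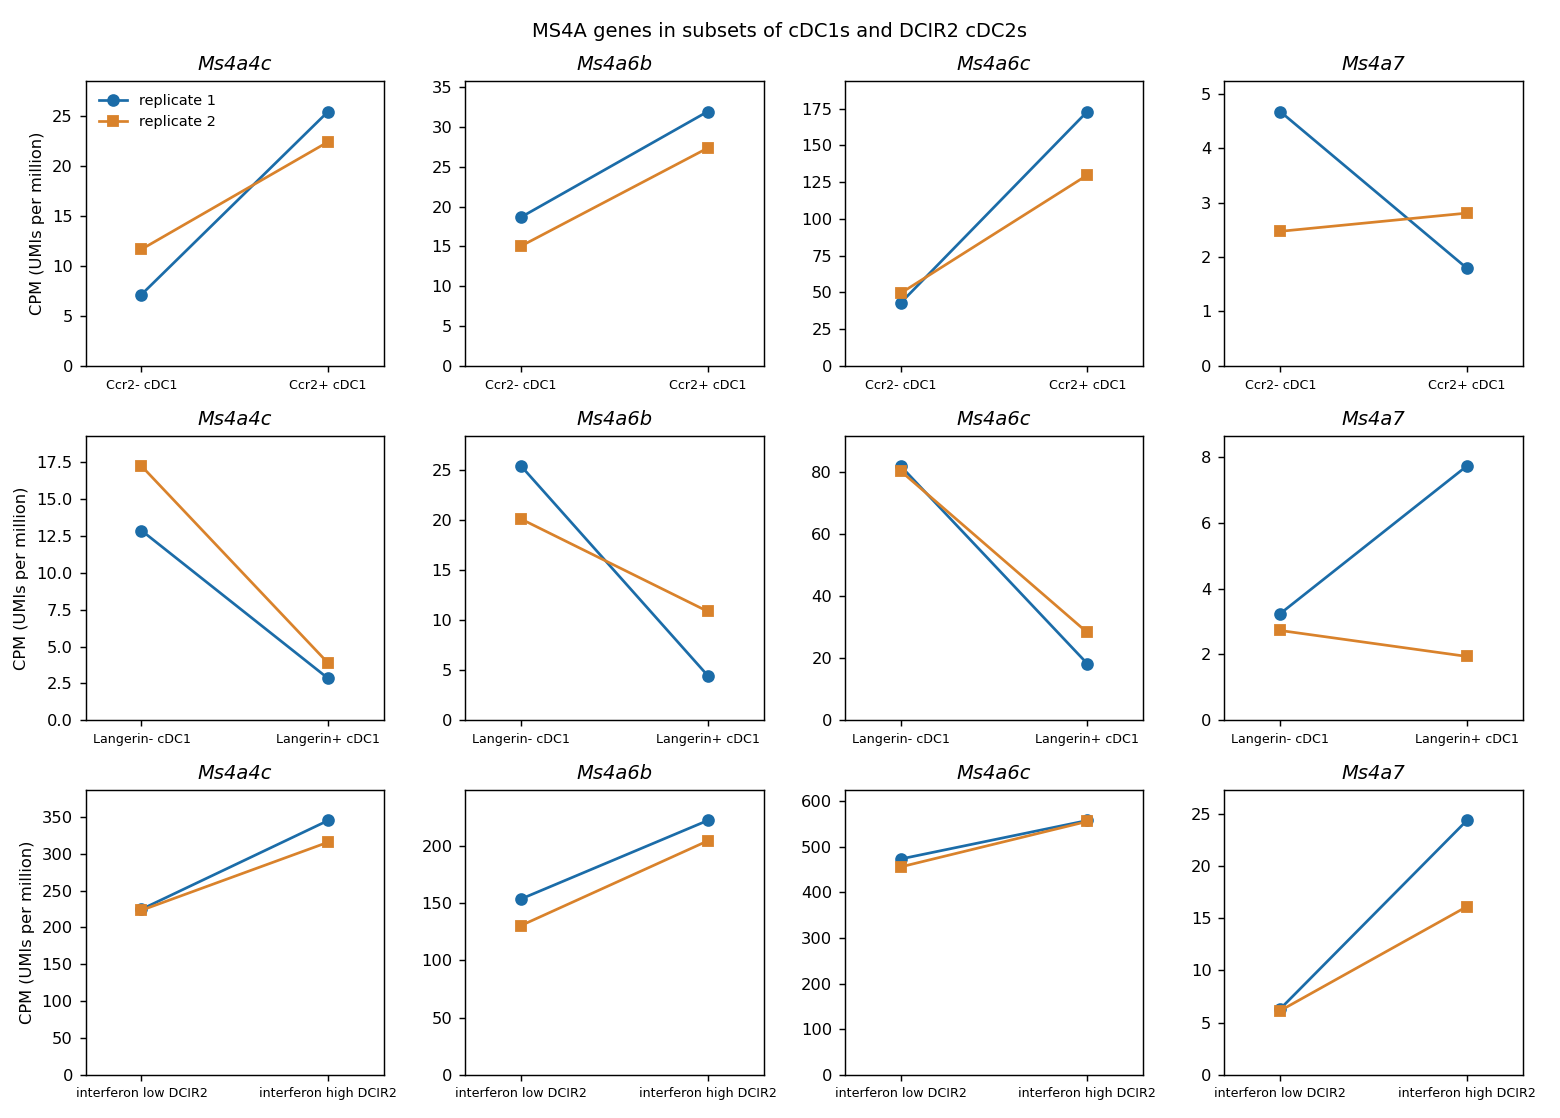
Level of Ms4a4c, Ms4a6b, Ms4a6c and Ms4a7 in CPM (vertical axis, from 0) in cDC1s without and with Ccr2, in cDC1s without and with Langerin, and in DCIR2 cDC2s with low and high interferon score; each line joins the 2 groups of cells of 1 sample. Ms4a4c, Ms4a6b and Ms4a6c are higher in Ccr2+ and lower in Langerin+ cDC1s in both samples, and all 4 genes are higher in interferon-high DCIR2 cDC2s in both samples, although only the tests named in the text passed.

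Interferon-induced genes vary among DCs at rest, and the members were compared between DCIR2 cDC2s in the top 25% of a score of 11 interferon-induced genes (139 and 114 cells) and those in the bottom 25% (145 and 128 cells), with the score genes left out. Of all genes 3.52% were called, and 3 of 6 members tested were, all higher in the interferon-high cells, with a median log2 fold change of 0.59 against -0.01 over all genes. Ms4a4c stood at 345 and 316 CPM against 225 and 223 CPM (log2 fold change 0.62, SE 0.11, edgeR adjusted p = 0.00799). Ms4a6b was at 222 and 204 CPM against 154 and 130 CPM (0.65, SE 0.13, adjusted p = 0.0181). Ms4a7 was at 24.4 and 16.1 CPM against 6.31 and 6.15 CPM, from 42 and 22 against 12 and 9 UMIs (1.76, SE 0.41, adjusted p = 0.0375). In all 3, both interferon-high samples were above both interferon-low samples. Ms4a6c was at 558 and 556 against 473 and 456 CPM (0.32, SE 0.09) and did not pass (adjusted p = 0.081), but did with the sample number as a block (adjusted p = 0.0175).

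These calls depended on the gate. With each gate at 2 times its minimum, Ms4a4c stood at 0.31 (edgeR adjusted p = 0.566) and Ms4a6b at 0.18 (adjusted p = 0.822). Among cells that matched 1 gate only, Ms4a6b was at 0.51 (adjusted p = 0.219) and Ms4a7 at 1.71 (adjusted p = 0.145), and DESeq2 gave Ms4a7 an adjusted p of 0.224. The CLEC10A gate was also matched by 45.3% and 43.0% of interferon-high against 28.3% and 25.8% of interferon-low cells, and the macrophage list summed to 291 and 245 against 164 and 196 CPM. The monocyte list summed to 15.1 and 11.7 against 3.16 and 1.37 CPM, and the CLEC10A list to 244 and 116 against 238 and 221 CPM. Their part in the differences was not tested. Set beside the promoters above, Ms4a6b and Ms4a7, which were called, and Ms4a6c, which was not, hold the interferon core, and Ms4a4c, which was called, holds none in the window shown. The windows of Ms4a4c and Ms4a6b do not cover the outermost annotated starts of these genes.

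Other genes of the family were sought in a list of 15, of which 14 were in the tables (not Ms4a6e). Most were almost silent, with totals over the kept cells of both samples of 177 UMIs for Ms4a4a, 26 for Ms4a2, 17 for Ms4a4d and 0 to 12 for Ms4a3, Ms4a5, Ms4a10, Ms4a12, Ms4a13, Ms4a15 and Ms4a18. Among the gated classes, Ms4a8a (53.3 and 37.1 CPM) and Ms4a14 (16.6 and 22.0 CPM) peaked in macrophages like Ms4a6d and Ms4a7. Their log2 fold changes over cDC1s were 6.99 and 4.64, both called by edgeR. The related Tmem176a and Tmem176b, whose products form ion channels of endosomal membranes in DCs, were far more abundant and peaked in mature DCs, at 1202 and 1151 CPM and at 1615 and 1501 CPM. They were called higher in mature DCs than in resident cDCs (2.69 and 2.36) and lower in interferon-high than in interferon-low DCIR2 cDC2s (-0.86, adjusted p = 0.000904, and -0.68, adjusted p = 0.00254), opposite in sign to Ms4a4c, Ms4a6b and Ms4a7.

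To describe which genes had the most similar distribution, Pearson's r of log2(CPM + 10) was taken over the 18 sums of class and sample among 9319 genes, sums that share libraries and differ in depth. The nearest to Ms4a1 were Gm15848 (r = 0.954), Vpreb3 (0.934) and Fcmr (0.933), and to Ms4a4b Cd96 (0.987), Zap70 (0.986) and Gata3 (0.983). Ms4a4c lay nearest to Man1a (0.920), Gpr183 (0.903) and St8sia6 (0.903), Ms4a6b to Hs3st3b1 (0.867), Abca2 (0.860) and Rarg (0.851), and Ms4a6c to Rin2 (0.954), B4galt6 (0.922) and Gm5431 (0.920). Ms4a6d lay nearest to C1qc (0.926) and C1qb (0.911, a gating gene), and Ms4a7 to Adgre4 (0.957), Fam234a (0.947) and Pla2g7 (0.944). Between members, r was 0.781 for Ms4a6d and Ms4a7 and 0.621 for Ms4a4b and Ms4a6b. Sequence copies were not the most alike in distribution, with r of 0.134 for Ms4a4b and Ms4a4c and 0.402 for Ms4a6b and Ms4a6c.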

How the data were processed

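Per the labels and methods, splenic CD11c+ cells of 2 wild-type samples were tagged, captured on the BD Rhapsody system and sequenced as whole-transcriptome libraries. The authors ran the BD Rhapsody pipeline for whole transcriptomes, and its deposited output was used: raw UMI counts per cell and gene, aligned to GRCm38 and corrected for UMI errors, not normalized. The submitters' processing notes name R 4.2.3 and Seurat 4.3.0.1.

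Following the methods, cells with at least 200 genes and within the mean ± 3 median absolute deviations of UMIs, genes and percent of mitochondrial UMIs per sample were kept; the methods name the number of mitochondrial genes, which was read here as that percent. No doublet caller was run; cells matching several gates were left out in an alternative. UMIs were summed per class and sample and fitted with edgeR 4.0.16 (TMM, filterByExpr, quasi-likelihood test, Benjamini-Hochberg adjustment) in R 4.3.3, without gating genes, in 4 fits: 9 classes, MMMs and Langerin+ cDC1s with their counterparts, Ccr2 in cDC1s, and the top and bottom 25% of DCIR2 cDC2s by interferon score. Levels and shares were computed with Python 3.11.15. Alternatives were DESeq2 1.42.0, size factors of DESeq2 in edgeR, no low-count filter, all cells, stricter gates, the sample number as a block and leaving out a sample. On counts simulated for the comparison of macrophages and cDC1s, 187 of 200 genes changed 4-fold and 129 of 200 changed 2-fold were called, with 12 and 15 false calls among 10840 and 10823 genes. For MMMs against Langerin+ cDC1s, 183 and 127 of 200 were called, with 7 and 8 false calls. The Ccr2 comparison gave 199 and 153, with 15 and 6 false calls. The interferon comparison gave 199 and 133, with 14 and 25 false calls, the most beside true calls at 2-fold. These 25, and the 15 at 2-fold for macrophages and cDC1s, were a larger share of the calls than the threshold of 0.05 allows. In the simulation all other genes had 1 common mean over the groups, unlike the data. Same-numbered sums come from 1 sample, so the block is a real pairing; their deviations correlated at -0.05 to 0.15.

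The text names the 7 members, a list of other family genes, and the 3 genes nearest to each member in correlation. For Ms4a6d, 1 of these is not reported here. The members and lists were chosen with earlier results of these data known. Depth was 46953398 and 43137746 UMIs in all cells of replicates 1 and 2.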

Additional observations from a re-analysis of the deposited data

Results flagged for a closer look

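Signals of the family also appeared in cells that matched no gate and entered no comparison. A single cell of replicate 2 with at least 3 Mcpt8 UMIs held 24 of the 26 Ms4a2 UMIs of all kept cells and 5 UMIs of Ms4a3, and its 4 basophil markers summed to 80030 CPM. Ungated cells with at least 3 Ly6c2 UMIs, 10 in replicate 1 and 20 in replicate 2, had 1768 and 1719 CPM of Ms4a6c and 596 and 474 CPM of Ms4a4c. The same cells had 151 and 55.4 CPM of Ms4a6d, from 16 and 11 UMIs, and 85.1 and 65.5 CPM of Ms4a8a. Each of these genes was above every gated class in both samples. Ms4a7 was nearly missing there, with 0 and 1 UMI. Ms4a4b, high in T and NK cells, had 1 UMI in replicate 1 and 45 in replicate 2 (227 CPM), the latter in 8 of the 20 cells. Whether the group mixes cell types was not tested. The monocyte list, which includes the Ly6c2 that chose the cells, summed to 5087 and 6103 CPM. These values have no test, since no group of the study was defined by them.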

How the results depend on the processing

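Of 87 tests of a member, 45 were called, and 32 of the 45 stayed called under all 7 tested alternatives. No fold change of a called member reversed. All 45 kept their direction without either sample, where no residual degrees of freedom are left and no test is possible. The class with the highest level stayed the same for 6 of 7 members. For Ms4a4c it was the DCIR2 cDC2s, the CLEC10A cDC2s with all cells and with the stricter gates, and the pDCs (mean 264 CPM) with cells of 1 gate. Counts of genes called moved over 1.5 times in the narrow comparisons. Between MMMs and other macrophages 0 genes became 6 with DESeq2, 97 without the low-count filter, 4 with the replicate block, 3 with all cells and 1 with each gate at 2 times its minimum. Between Langerin+ and Langerin- cDC1s 42 became 243 without the filter, 102 with the replicate block, 19 with cells of 1 gate and 19 with the stricter gates. Between Ccr2+ and Ccr2- cDC1s 1276 became 826 with DESeq2, 1941 without the filter and 2272 with the replicate block. Between interferon-high and interferon-low DCIR2 cDC2s 330 became 192 with DESeq2, 669 without the filter, 630 with the replicate block and 103 with cells of 1 gate. The cause of these shifts was not tested. Of 63 pairs of member and class, 35 had a UMI in at least 10% of cells of both samples, 26 after thinning to 3000 UMIs and 29 when 2 UMIs were required. The replicate block ended the call of Ms4a6c between B and T cells and of no other member, and added 5 calls. Several members had at most 4 UMIs per sample in pDCs, B cells or T cells, and differences among such classes were not detectable at this depth.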

Other observations

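Cells of the cDC2 classes and ungated cells with at least 5 Ms4a7 UMIs, a group chosen after the values were seen and given without a test, numbered 28 in replicate 1 and 25 in replicate 2. They were spread over CLEC10A cDC2s (13 and 9), DCIR2 cDC2s (5 and 1) and ungated cells (10 and 15). Beside 1491 and 1338 cells of the same classes without a Ms4a7 UMI, they had 385 and 335 against 77.9 and 67.0 CPM of Adgre4, 123 and 343 against 20.2 and 27.5 CPM of Pla2g7, and 34.1 and 59.6 against 2.98 and 6.57 CPM of Ms4a6d. Ms4a6c was at 765 and 991 against 573 and 607 CPM, Fam234a at 28.8 and 34.8 against 21.4 and 24.5 CPM, and Ms4a4c at 199 and 184 against 233 and 243 CPM. Mature DCs (3 and 1), cDC1s (2 and 1) and NK cells (1 and 0) held a few more such cells, which are not in these values. The macrophage list summed to 1459 and 2560 against 224 and 236 CPM in these cells, and the CLEC10A list to 5151 and 12334 against 927 and 1367 CPM, while the monocyte list was not higher (55.0 and 42.2 against 64.5 and 133 CPM). Their median depth was 13197 and 15065 UMIs against 10566 and 10472.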
